A study of Mus musculus with 9 samples.

Results

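The 10 genes described here carry the antigen presentation and macrophage signal of mouse tibialis anterior, a fast muscle of the lower leg. They were chosen by name, and all 10 were found in both deposited tables, among 14971 genes listed in either. The muscle came from male mice of the C57BL/6J strain, 4 weeks after treatment, and each of 3 groups had 3 libraries. Control mice had not been orchiectomised, ORX mice had lost their testes to surgery, and ORX+DHT mice had the same surgery and received the androgen dihydrotestosterone. The tables call the control group sham. The age of the mice, and the dose and route of the androgen, are not given in the sources used here, and each library is labelled as a biological replicate. The design asks which transcripts depend on circulating androgen and which respond when an androgen is supplied.

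Class I molecules of the major histocompatibility complex (MHC) sit on nearly all nucleated cells and show peptides from inside the cell to CD8 T cells. Each is a heavy chain, such as the products of H2-K1 and H2-D1, held by the small subunit beta-2 microglobulin (B2m). Class II molecules are pairs of an alpha and a beta chain (H2-Aa with H2-Ab1, and H2-Eb1, whose alpha partner is not expressed in the C57BL/6 strain), they are assembled on the invariant chain Cd74, and they are made mainly by macrophages, dendritic cells and B cells. Lyz2 encodes lysozyme of myeloid cells, Cd68 a lysosomal glycoprotein of macrophages and Mrc1 the mannose receptor CD206 of resident macrophages. In skeletal muscle such cells lie in the connective tissue between fibres. The libraries came from whole muscle, so a change in the number of immune cells and a change in RNA per cell cannot be told apart.

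On the GRCm38 build that the submitters' processing notes name, GENCODE release M21 places H2-K1, H2-Ab1, H2-Aa, H2-Eb1 and H2-D1 in the MHC on chromosome 17, between positions 33996017 (the start of H2-K1) and 35267499 (the end of H2-D1). B2m lies on chromosome 2 from 122147686 to 122153083, and Mrc1 on the same chromosome from 14229392 to 14332057. Lyz2 lies on chromosome 10 from 117277331 to 117282321 and Cd68 on chromosome 11 from 69664213 to 69666153. Class I heavy chains are a family of near-identical genes. Of all 50-base stretches of H2-K1 transcripts, 9.63% also occur in another gene, such as H2-Q10, H2-D1 or H2-Q7, and of those of H2-D1 12.8% do. For Lyz2 the share was 15.4%, all with its neighbour Lyz1. The counts of these 3 genes are therefore uncertain, while B2m, Cd74, H2-Ab1, H2-Eb1, Cd68 and Mrc1 shared none (0 stretches each) and H2-Aa shared 0.514%.

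RefSeq promoters on GRCm38.p6 were listed for 8 of the 10 genes, H2-Ab1 and Cd74 being the others. The 200 bases before the RefSeq start are shown for the 3 class I genes, whose levels moved together across libraries, and for 2 class II genes. Letters in capitals match any of 4 short motifs, searched on both strands: the palindrome at the core of enhancer A of class I genes, GAANNGAAA (a pair of half-sites found in interferon-stimulated elements), CTGATTGG (the Y box) and ATTGG (the core of the CCAAT box, which lies inside the Y box).
B2m (chr2:122147487-122147686, plus strand): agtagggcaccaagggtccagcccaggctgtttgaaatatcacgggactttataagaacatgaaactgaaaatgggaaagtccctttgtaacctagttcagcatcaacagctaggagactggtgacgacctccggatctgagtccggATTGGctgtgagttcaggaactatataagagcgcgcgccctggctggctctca
H2-K1 (chr17:34000348-34000547, minus strand): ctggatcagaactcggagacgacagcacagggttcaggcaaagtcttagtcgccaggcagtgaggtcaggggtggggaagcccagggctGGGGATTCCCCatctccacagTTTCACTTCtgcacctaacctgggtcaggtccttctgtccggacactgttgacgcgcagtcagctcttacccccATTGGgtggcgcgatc
H2-D1 (chr17:35262894-35263093, plus strand): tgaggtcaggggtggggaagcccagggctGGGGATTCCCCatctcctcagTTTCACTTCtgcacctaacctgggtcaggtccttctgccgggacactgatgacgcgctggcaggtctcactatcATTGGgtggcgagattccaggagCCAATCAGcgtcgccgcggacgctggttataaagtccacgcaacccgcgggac
H2-Aa (chr17:34287824-34288023, minus strand): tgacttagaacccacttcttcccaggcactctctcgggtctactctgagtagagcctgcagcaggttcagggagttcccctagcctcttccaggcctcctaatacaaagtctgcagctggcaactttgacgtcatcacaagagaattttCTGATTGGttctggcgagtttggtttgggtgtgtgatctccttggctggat
H2-Eb1 (chr17:34305667-34305866, plus strand): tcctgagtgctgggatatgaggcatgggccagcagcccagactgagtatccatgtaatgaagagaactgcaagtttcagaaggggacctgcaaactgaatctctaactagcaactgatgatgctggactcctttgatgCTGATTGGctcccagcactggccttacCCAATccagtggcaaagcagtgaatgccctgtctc
Enhancer A matched in H2-K1 and H2-D1, from position -111 to -101 and from -171 to -161 counted from the start, and in 0.0222% of all 27025 promoter windows of 300 bases (250 before and 50 after the start). The half-site pair matched in both of these and in Cd68, against 7.56% of all windows. Only the exact letters GAANNGAAA were searched for it. The B2m letters shown hold gaaactgaaa, a similar pair with wider spacing between gaa and gaaa, which that search passes over. The lack of a match in B2m is therefore not a lack of such a pair. The Y box matched in H2-Aa and H2-Eb1, from -51 to -44 and from -62 to -55, and on the other strand in H2-D1 and, past the start and outside the letters shown, in H2-K1, against 4.31% of all windows. The CCAAT core matched in 7 of the 8 windows, Lyz2 being the exception, against 37.9% of all windows. A match is a description of letters and not of binding.

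Values are normalised read counts, in which the reads of a library are divided by its scaling factor, here with all 9 libraries on one scale. Depth was 1340209 to 1682235 reads per library, so that single members rest on few reads: H2-D1 on 94 to 215, Cd74 on 26 to 90, H2-Eb1 on 8 to 38 and Cd68 on 1 to 7. One library stood apart over all genes. On the first principal component, which held 30.7% of the variance, control replicate 1 scored -47.2 and the other 8 libraries 0.716 to 10.6. Each comparison with controls is therefore also given without it.

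Per kilobase of annotated exon, B2m was the most abundant, with a mean of 170.0 ± 48.8 normalised counts per kilobase (SD over all 9 libraries). H2-D1 followed at 58.6 ± 12.8, H2-K1 at 44.1 ± 14.99, Cd74 at 32.9 ± 9.86 and Lyz2 at 27.9 ± 9.81. The lowest were H2-Eb1 at 11.3 ± 4.45, H2-Ab1 at 8.74 ± 2.94, H2-Aa at 5.33 ± 1.61, Mrc1 at 3.16 ± 0.871 and Cd68 at 2.68 ± 1.41, on the same scale. B2m stood clear of H2-D1, and Lyz2 of H2-Eb1, by more than their spreads, while all other neighbours in this order overlapped within 1 SD. On this scale the invariant chain stood above the class II chains it assembles, and B2m above both heavy chains. The order depends on the division by all annotated exon bases, which are 860 for B2m, 2579 for H2-D1 and 2938 for H2-K1. Before it, the mean count was 146.2 for B2m and 151.0 for H2-D1.

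**Figure D1:**
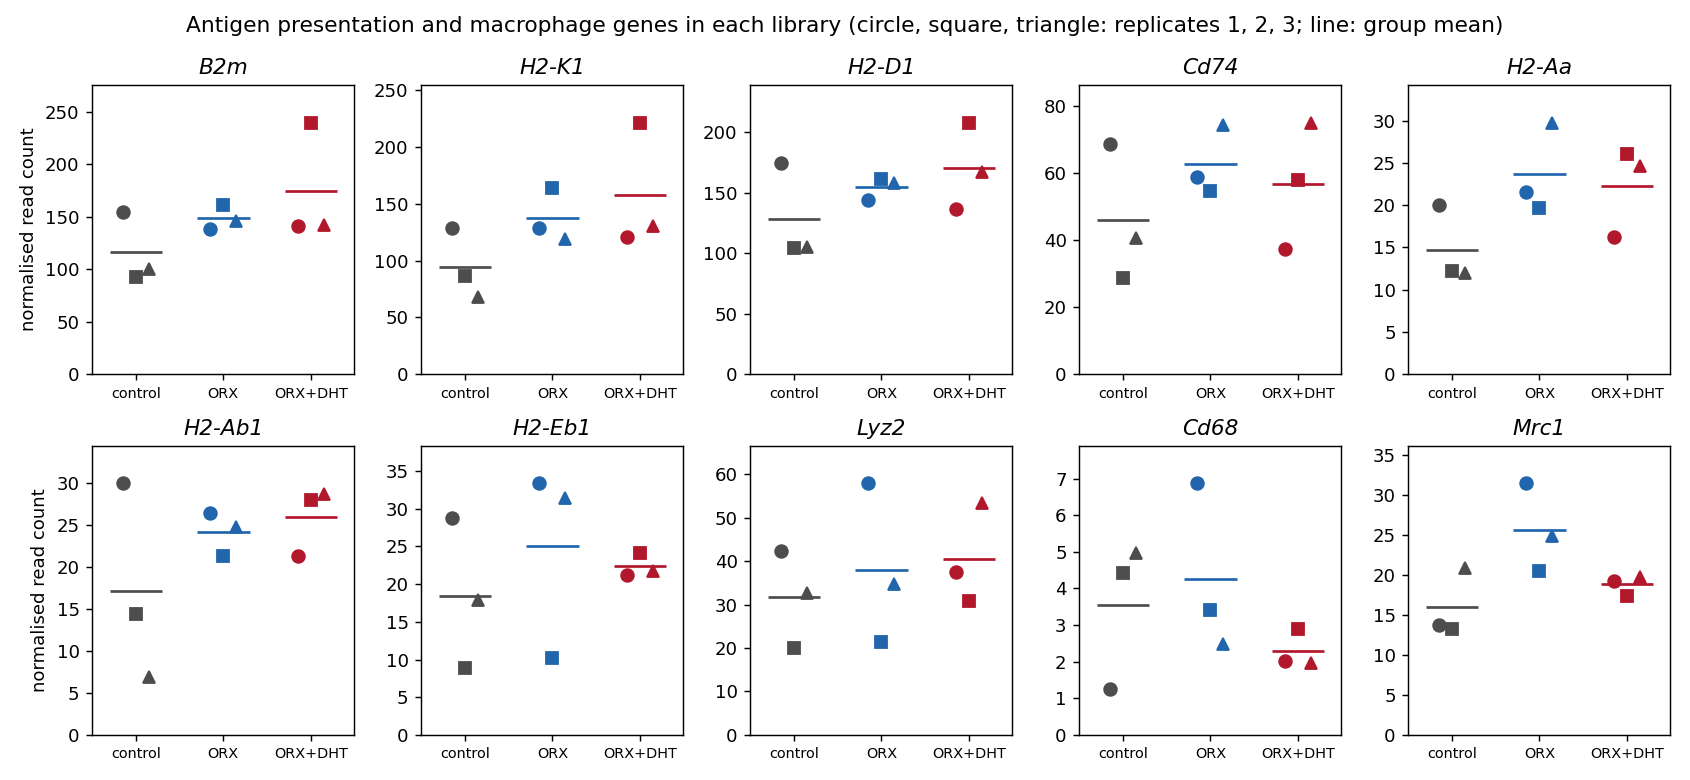
Normalised read count (vertical axes, each from 0) of the 10 genes in each of the 9 libraries by group; symbols mark replicates and lines the group means. Control 1 was the highest control for the 3 class I and 4 class II genes, and ORX+DHT 2 the highest library of all for B2m, H2-K1 and H2-D1.

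Among the class I genes, B2m had normalised counts of 155, 92.9 and 100.3 in the controls (replicates 1, 2 and 3, as in all such lists), 138, 161 and 146 in the ORX libraries and at 141, 239.8 and 142 in the ORX+DHT libraries. H2-K1 stood at 129, 86.2 and 67.5 in controls, 129, 164 and 119 in ORX and 121, 221 and 130.4 in ORX+DHT muscle. H2-D1 stood at 175, 104 and 105 in controls, 144, 161 and 158 in ORX and 137, 208 and 167 in ORX+DHT muscle. For all 3 genes controls 2 and 3 lay below every orchiectomised library, with or without the androgen, and control 1 lay among them, so the groups overlapped; ORX libraries all lay above controls for 0 members and for 6.28% of all genes tested. ORX+DHT 2 was the highest library for each of them.

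The class II genes had fewer counts. Cd74, which lies on chromosome 18 from 60803848 to 60812652, stood at 68.7, 28.8 and 40.7 in controls, 58.9, 54.6 and 74.5 in ORX and 37.5, 58.0 and 75.1 in ORX+DHT muscle. H2-Aa stood at 19.98, 12.2 and 11.9, then 21.6, 19.6 and 29.8, then 16.2, 26.1 and 24.7. H2-Ab1 stood at 30.0, 14.4 and 6.95, then 26.5, 21.3 and 24.8, then 21.3, 28.0 and 28.7. For these 3 genes, too, controls 2 and 3 lay below the ORX libraries, and control 1 did not. H2-Eb1 did not show this: it stood at 28.7, 8.85 and 17.9 in controls and at 33.4, 10.2 and 31.4 in ORX libraries, with ORX 2 close to the lowest control. In ORX+DHT muscle it stood at 21.3, 24.2 and 21.7.

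Of the macrophage genes, Lyz2 stood at 42.5, 19.9 and 32.8 in controls, 57.9, 21.3 and 34.7 in ORX and 37.5, 30.9 and 53.4 in ORX+DHT muscle, with wide overlap of the groups. Mrc1 stood at 13.7, 13.3 and 20.9 in controls, 31.4, 20.5 and 24.8 in ORX and 19.2, 17.4 and 19.8 in ORX+DHT muscle. Every ORX+DHT library lay below every ORX library for Mrc1, while control 3 lay just above ORX 2. Cd68 gave 1, 4 and 5 reads in controls, 7, 4 and 3 in ORX and 2, 3 and 2 in ORX+DHT libraries. It did not reach the mean of 10 normalised counts required for testing, and a difference in it was not detectable at this depth; the other 9 genes were tested in each comparison.

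The spread between replicates was above what read counting alone gives in every group for H2-K1, Cd74 and Lyz2, and in control and ORX+DHT but hardly or not in ORX muscle for B2m and H2-D1. For H2-K1 the SD was 31.3, 23.5 and 55.6 in control, ORX and ORX+DHT libraries, where counting alone gives 10.4, 11.0 and 12.4. For B2m the SD between the control libraries was 33.8, between ORX libraries 11.7 and between ORX+DHT libraries 56.7 (n = 3 each), where counting alone gives 11.5, 11.5 and 13.1. For Mrc1 the SD was 4.25, 5.51 and 1.24, and counting alone gives 4.18, 4.79 and 4.32. For H2-Aa it was 4.58, 5.39 and 5.35 against 4.09, 4.57 and 4.69. Replicates of these 2 low genes thus differed by about as much as counting error, or by less for Mrc1 in ORX+DHT muscle.

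In ORX against control muscle none of the 9 tested genes passed (0 called by limma at an adjusted p under 0.05, and 0 by edgeR and by DESeq2), where 0.0579% of all 8631 genes tested were called. An unadjusted p under 0.05 was found for 3 of the 9, H2-K1, H2-Aa and Mrc1, against 7.21% of all genes. All 9 had a log2 fold change above 0, as had 48.9% of all genes, and their median was 0.51 against -0.01 over all genes. Genes that vary together are not independent of one another, and no test was made over the 9. The class I log2 fold changes were 0.39 for B2m (95% interval -0.05 to 0.83), 0.57 for H2-K1 (0.07 to 1.08) and 0.31 for H2-D1 (-0.14 to 0.76), with limma adjusted p of 0.695, 0.675 and 0.760. The class II values were 0.51 for Cd74, 0.67 for H2-Aa, 0.69 for H2-Ab1 and 0.39 for H2-Eb1, at adjusted p of 0.717, 0.684, 0.746 and 0.860 by limma. H2-Ab1 and H2-Eb1 had wide intervals, from -0.22 to 1.59 and from -0.65 to 1.43. Mrc1 had a log2 fold change of 0.65 (0.05 to 1.26) and Lyz2 of 0.20 (-0.58 to 0.99), with limma adjusted p of 0.676 and 0.915.

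The values moved with the control left out, upward for most members without control 1 and downward for most without control 2 or 3. Without control 1 H2-K1 was higher in ORX muscle by 0.82 on the log2 scale (adjusted p 0.038 by limma), so 1 of the 9 genes was called. Of all 8609 genes 0.592% were called and 0.197% were called higher. B2m and H2-D1 stood just outside the threshold, at 0.61 and 0.56 (limma adjusted p 0.0522 and 0.0699). The value was 0.84 for Cd74, 0.90 for H2-Aa and 1.18 for H2-Ab1, at adjusted p of 0.1, 0.233 and 0.161 by limma. An unadjusted p under 0.05 with a higher level in ORX was then found for 6 of the 9, against 4.58% of all genes, and the median log2 fold change was 0.77. All 9 stood above 0, as did 47.3% of all genes. Without control 3 the log2 fold change was 0.36 for H2-K1, 0.19 for H2-D1 and 0.20 for H2-Ab1 (limma adjusted p 0.604, 0.790 and 0.852). Without control 2 it was 0.25 for B2m, 0.18 for H2-D1 and 0.23 for Cd74 (limma adjusted p 0.732, 0.811 and 0.801), and -0.03 for H2-Eb1 and -0.09 for Lyz2. The pair of controls left in each of these fits is assumed to vary like the ORX libraries.

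**Figure D2:**
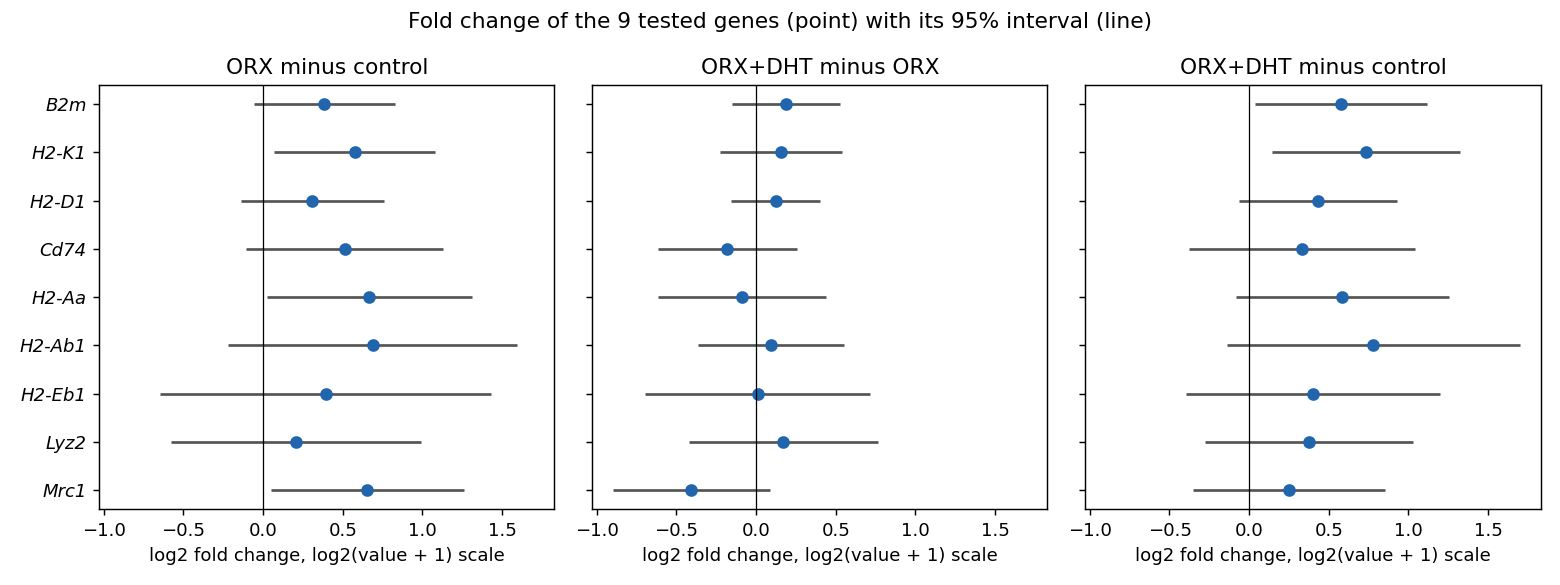
Log2 fold change (horizontal axis, log2(value + 1) scale) of the 9 tested genes in each of the 3 comparisons, with all libraries; lines are 95% intervals from limma. The points of both comparisons with control lie above 0 and most intervals cross it, and in ORX+DHT minus ORX every interval crosses it.

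In ORX+DHT against ORX muscle none of the 9 genes passed either (0 called by limma, edgeR and DESeq2), where 4.08% of 8770 genes were called, and 0 had an unadjusted p under 0.05, against 14.3% of all genes. Of the 9, 6 had a log2 fold change above 0, as had 50.8% of all genes. The class I log2 fold changes were 0.19 for B2m (95% interval -0.15 to 0.53), 0.16 for H2-K1 (-0.22 to 0.54) and 0.12 for H2-D1 (-0.16 to 0.40). In this fit with all libraries of both groups the intervals do not reach 0.6. The 3 values were carried by ORX+DHT 2: without it they were -0.06, -0.11 and -0.03. Without ORX 2 the value of H2-K1 was 0.29 (limma adjusted p 0.631), so the limit of 0.6 is given for the fit with all libraries only. The class II log2 fold changes lay between -0.18 (Cd74, interval -0.62 to 0.26) and 0.09 (H2-Ab1, -0.37 to 0.55), and those of H2-Aa and H2-Eb1 were -0.09 and 0.01. Lyz2 had 0.17 (-0.42 to 0.76). The values of H2-Eb1 and Lyz2 depended on single ORX libraries: without ORX 1 they were 0.29 and 0.52, and without ORX 2 they were -0.52 and -0.18, with no call by limma (adjusted p 0.779, 0.401, 0.390 and 0.862). Mrc1 had the log2 fold change farthest from 0, -0.41 (-0.90 to 0.09, limma adjusted p 0.463). It was the only member whose groups did not overlap, lower in ORX+DHT muscle, which was so for 9.13% of all genes.

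In ORX+DHT against control muscle 0 of the 9 genes were called by limma, by edgeR and by DESeq2, where limma called 0.0349% of 8595 genes. All 9 had a log2 fold change above 0, as had 49.3% of all genes. An unadjusted p under 0.05 was found for H2-K1 and B2m, against 6.48% of all genes. Their log2 fold changes were 0.73 (95% interval 0.14 to 1.32) and 0.57 (0.03 to 1.11), and that of H2-D1 was 0.43 (-0.06 to 0.93), each at a limma adjusted p of 0.736. The class II values were 0.78 for H2-Ab1, 0.58 for H2-Aa, 0.40 for H2-Eb1 and 0.33 for Cd74, at adjusted p of 0.736, 0.736, 0.805 and 0.820 by limma. Lyz2 and Mrc1 had 0.37 and 0.25 (limma adjusted p 0.789 and 0.843). Without control 1, H2-K1 and H2-D1 were higher in ORX+DHT muscle, by 0.98 and 0.68 (limma adjusted p 0.038 and 0.0491), so 2 of the 9 were called. Of all genes 0.768% were called and 0.361% were called higher. An unadjusted p under 0.05 with a higher level was found for 8 of the 9, against 4.58% of all genes, and all 9 stood above 0, as did 48.9% of all genes. B2m then stood at 0.80 (limma adjusted p 0.0616). Leaving out other libraries lowered these values: H2-K1 stood at 0.52 without control 3 and 0.46 without ORX+DHT 2, B2m at 0.32 without ORX+DHT 2, H2-Ab1 at 0.30 without control 3, and Cd74 at 0.05 without control 2. This comparison and the first share the control libraries, so the same low controls 2 and 3 enter both.

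The class I genes varied together from library to library. Over all 9 libraries and 36 pairs of the 9 genes, Pearson's r on the log2 scale was above 0 in each pair, and as deviations from each group's mean it was above 0 in 29 of the 36. The 7 pairs below 0 within groups joined Mrc1 to B2m, H2-K1 (r = -0.64), H2-D1, H2-Aa or H2-Ab1 (r = -0.50), and Lyz2 to B2m or H2-K1. Over all libraries 9 pairs passed an exact two-sided permutation test after Benjamini-Hochberg adjustment over the 36. The same shares over pairs of other genes in these libraries are not given here, so these counts are not shown to be particular to the members. B2m and H2-D1 had r = 0.949 (exact permutation p 0.000306, adjusted 0.0110) and Spearman's rho 0.900 (adjusted p 0.0541). B2m and H2-K1 had r = 0.949 (exact permutation p 0.000978, adjusted 0.0176) and rho 0.833 (adjusted p 0.0744), and H2-K1 and H2-D1 had r = 0.914 (exact permutation p 0.0015, adjusted 0.0178) and rho 0.867 (adjusted p 0.0541). By Spearman's rho no pair passed the adjustment. Without the 2 libraries farthest from the median of the first gene, r was 0.923, 0.963 and 0.812, and without control 1 it was 0.959, 0.951 and 0.939. Within groups, as deviations from each group's mean, r was 0.921, 0.916 and 0.868. B2m lies on another chromosome and shares no 50-base stretch with the heavy chains, whereas H2-K1 and H2-D1 share sequence.

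Of the class II genes, Cd74 and H2-Aa had r = 0.876 (exact permutation p 0.00233, adjusted 0.0178), rho 0.800 (adjusted p 0.0830), 0.848 without the 2 farthest libraries and 0.885 within groups. H2-Aa and H2-Ab1 had r = 0.814 (exact permutation p 0.00355, adjusted 0.0205) and rho 0.717 (adjusted p 0.130), and 0.472 without the 2 farthest libraries, controls 2 and 3, so that relation rests on them. H2-Eb1 varied with Lyz2 (r = 0.831, exact permutation p 0.00757, adjusted 0.0341, rho 0.733 with adjusted p 0.130). That relation also rests on few libraries: r was 0.387 without control 2 and ORX 2, and without control 1 the adjusted permutation p was 0.0548. The other 3 pairs that passed joined H2-D1 or H2-K1 to H2-Aa or H2-Ab1, with r from 0.794 to 0.858, and with r from 0.510 to 0.609 without the 2 farthest libraries.

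**Figure D3:**
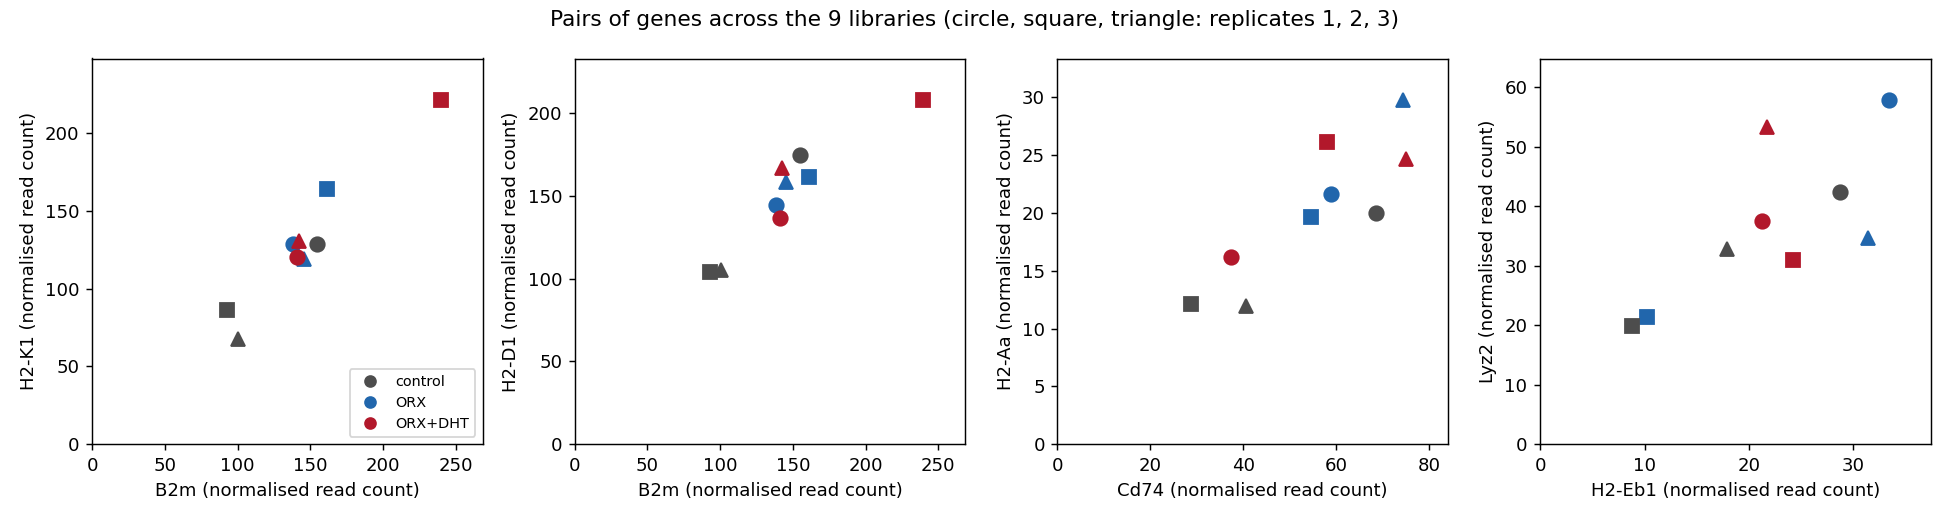
Normalised read counts of 4 pairs of genes in the 9 libraries (both axes from 0; colours mark groups and symbols replicates). B2m follows H2-K1 and H2-D1 closely (r = 0.949 on the log2 scale for each), with controls 2 and 3 at the lower end and ORX+DHT 2 at the upper.

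The genes whose pattern was most like each class were sought among 8622 other genes, by Pearson's r over the 9 libraries with the mean log2 level of the class; this is a description. For class I they were Icam2, an adhesion molecule (r = 0.913), Iigp1, an interferon-inducible GTPase (0.905), Ext2 (0.900), Ly6e (0.899) and Zcchc9 (0.895). For class II they were Vim, the intermediate filament vimentin of connective tissue cells (0.956), Litaf (0.925), the matrix protein gene Dpt (0.921) and Tspan17 (0.916). For Lyz2, Cd68 and Mrc1 together they were Snw1 (0.937), the fibronectin gene Fn1 (0.931), the collagen gene Col6a3 (0.924), Ercc2 (0.914) and Akap10 (0.886). Cd68, at 1 to 7 reads per library, has the same weight in that mean as Lyz2 and Mrc1, so its counting error enters this ranking. Without control 1, Iigp1, Vim and Snw1 ranked first.

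Other genes of antigen processing did not pass in any comparison. Of 21 listed class I pathway genes (peptide transport, immunoproteasome, loading chaperones and other class I genes), the 3 comparisons, taken in the order above, tested 13, 15 and 14, and 0 were called by limma in each, with 1, 1 and 2 at an unadjusted p under 0.05. Their median log2 fold changes were 0.14, 0.00 and 0.12. The 2 at an unadjusted p under 0.05 in ORX+DHT against control were H2-Q4 and H2-Q6, where 6.48% of all genes had such a p. They were higher in ORX+DHT muscle by 1.17 and 1.47 on the log2 scale (limma adjusted p 0.673 and 0.736). Both were highest in ORX+DHT 2, at 42.5 and 53.2 normalised counts. The chaperones Calr, Canx and Pdia3 had the highest counts of the list, and their log2 fold changes between ORX and control muscle were -0.10, 0.14 and 0.34, at adjusted p of 0.911, 0.822 and 0.802 by limma. The transporter gene Tap1 varied from 5.07 normalised counts in ORX+DHT 1 to 25.1 in ORX+DHT 2. Of 14 listed class II pathway genes only 2 were tested, the protease gene Lgmn and the class II regulator Rfxap, and neither passed. Ciita, the master activator of class II genes, stood at 0.827 to 5.07 normalised counts, too few to test.

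Among 29 interferon response genes, 19 were tested in ORX against control and 0 were called by limma, with 4 at an unadjusted p under 0.05. Of the 19, 17 had a log2 fold change above 0 (median 0.39), against 48.9% of all genes, and 6 had ORX libraries all above the controls, against 6.28% of all genes. Summed over the list, control libraries held 471.8 to 586.8 normalised counts, ORX libraries 646.9 to 759.9 and ORX+DHT libraries 489.4 to 750.2. Iigp1 stood at 18.7, 7.74 and 12.9 in controls, 26.5, 46.9 and 25.6 in ORX and 17.2, 59.9 and 27.7 in ORX+DHT muscle, and its log2 fold change in ORX against control was 1.29 (SE 0.35, limma adjusted p 0.399). Without control 1 Iigp1 passed there, as 1 of 19. ORX+DHT 2 was the highest library for Iigp1, as it was for the class I genes.

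In ORX+DHT against ORX muscle 1 of the 19 interferon response genes tested passed, a share near the 4.08% of all genes called there. Ifngr2, a chain of the interferon gamma receptor, stood at 153, 163 and 161 normalised counts in ORX and 106, 83.1 and 127.5 in ORX+DHT muscle, with 129.9, 122 and 111 in controls. It fell by 0.61 on the log2 scale (SE 0.14, limma adjusted p 0.0143) and the groups did not overlap. The call was lost with all 9 libraries in 1 fit (limma adjusted p 0.0913) and without ORX 2, ORX+DHT 1 or ORX+DHT 2 (0.068, 0.0538 and 0.0812). Ifngr1, the other chain, was listed at 38.3, 41.8 and 49.6 in ORX and 52.7, 53.2 and 46.4 in ORX+DHT muscle.

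Markers of immune cell types were near the limit of detection. Of 30 macrophage markers 3, 6 and 6 were tested in the 3 comparisons in the order above and 0 were called by limma, with 1, 2 and 1 at an unadjusted p under 0.05; 14 of the 30 had 0 reads in at least 1 library. The colony-stimulating factor receptor gene Csf1r stood at 14.98, 4.42 and 10.9 in controls, 14.7, 11.1 and 15.7 in ORX and 18.2, 15.5 and 18.8 in ORX+DHT muscle. Markers of T and NK cells, B cells and neutrophils summed to at most 2.56, 3.75 and 1.25 normalised counts in any library. Dendritic cell markers summed to 20.7 to 41.6.

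Some sums of markers of other tissue cells moved with some of these values. The 7 fibroblast markers summed to between 1819 and 3180 in control, between 3201 and 4630 in ORX and between 2401 and 3222 in ORX+DHT libraries. The ORX sums thus stood above the control sums, and all 9 tested members had a log2 fold change above 0 there, as had 48.9% of all genes. The ORX+DHT sums overlapped the control sums, while all 9 members still had a log2 fold change above 0 against control, as had 49.3% of all genes. Col1a1 and Col3a1 had the highest counts of the list, with log2 fold changes in ORX against control of 1.08 and 0.76 (limma adjusted p 0.294 and 0.614). Gsn, the next, had 0.04 (limma adjusted p 0.981). Of the 7, 6 stood above 0, as did 48.9% of all genes, and 1 had ORX libraries all above the controls, against 6.28% of all genes. Of the 7, only Col1a1 was called by limma with all libraries, lower in ORX+DHT than in ORX muscle (log2 fold change -1.18, adjusted p 2.89e-06), and without control 1 Gsn was called higher in ORX+DHT than in control muscle. The part of fibroblast content in the values of the immune genes was not tested. Endothelial markers, of which 0 of 7 tested were called in any comparison (0, 2 and 1 at an unadjusted p under 0.05), summed to 823 to 885, 789 to 919.8 and 863 to 1009 in the 3 groups. The muscle fibre genes Myh4, Acta1 and Tnnt3, which define the labelled tissue, had mean levels of 83080, 58770 and 29040 normalised counts. Control libraries held 264800 to 292300 counts of the fibre markers, ORX libraries 218600 to 233500 and ORX+DHT libraries 241600 to 258500, and Acta1 and Myh1 were called higher in ORX+DHT than in ORX muscle (each by 0.47 on the log2 scale, limma adjusted p 0.00357 and 0.00755). Both lost the call with all 9 libraries in 1 fit (limma adjusted p 0.42 and 0.265), Acta1 also without ORX 2 (0.0524) and Myh1 also after quantile normalisation (0.158).

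**Figure D4:**
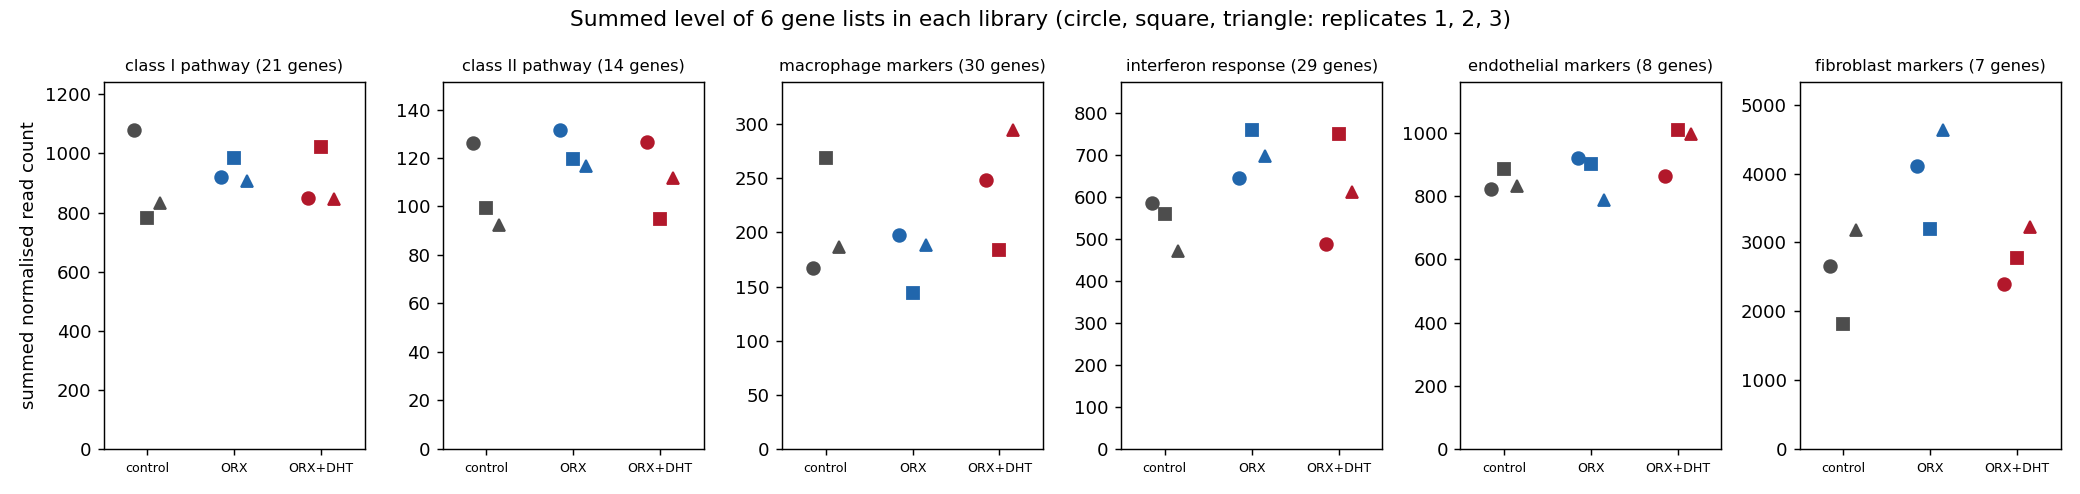
Summed normalised read count (vertical axes, each from 0) of 6 gene lists in each library by group; symbols mark replicates. The interferon response and fibroblast lists were higher in every ORX library than in every control library, and the macrophage list was highest in ORX+DHT 3, at 294.5.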

How the data were processed

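RNA of whole tibialis anterior was sequenced after polyA selection, per the labels' protocols. The authors deposited 2 tables of normalised counts, a signal in which reads are divided by 1 factor per library, 1 for control and ORX and 1 for ORX and ORX+DHT. The submitters' processing notes name Trim Galore 0.6.7, HISAT2 2.2.1, featureCounts 2.0.1, DESeq2 1.36.0 and GRCm38; the annotation and strand setting are not given in the sources used here. Columns called sham were taken as control, the only group without orchiectomy, by replicate number (0 columns were left without a sample). Within a tolerance of 0.01, 100% of values in each column were whole multiples of 1 step, which gave the reads; for control 3 the step is close to 1.

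The comparisons of ORX with control and of ORX+DHT with ORX were each tested within 1 table. That of ORX+DHT with control, and all printed levels, used the 14300 genes in both tables, rescaled together by median-of-ratios factors. Fits were made over all genes with a mean of at least 10, by limma 3.58.1 (R 4.3.3, trended eBayes) on log2(value + 1), which understates changes of low genes, with Benjamini-Hochberg adjustment and a threshold of 0.05. The fits were tested on simulated data. Alternatives included edgeR 4.0.16 and DESeq2 1.42.0 on the recovered reads. Counting SDs are square roots of counts and hold no other error; PCR copies were not told apart by molecular identifiers. The p-values measure the spread between these libraries.

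The members, gene lists, tests and naming rule were chosen with earlier results of these data known. The genes named are the 10 members, called list genes, the 3 most abundant genes of each list, and the 5 genes most like each class. Tap1, Ciita, Iigp1, Kit, H2-Q4 and H2-Q6 were added after their values were seen. A few genes that this rule names are not reported here. Lists of mast cell, adipocyte and blood markers are given in the closing section. Exon lengths and 50-base stretches come from GENCODE M21, and promoters from RefSeq (GRCm38.p6).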

Additional observations from a re-analysis of the deposited data

How the results depend on the processing

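None of the 9 tested genes was called in any comparison with pseudocounts of 0.1 and 10, without a filter on low values, with the filter at a mean of 50 (which tests fewer of them), with TMM scaling, quantile normalisation, all 9 libraries in 1 fit, the replicate block, edgeR or DESeq2. Leaving out 1 library gave 0 to 1, 0 to 0 and 0 to 2 called members in the 3 comparisons, in the report's order; both highest values came without control 1. Of 417 member fold changes under alternatives, 414 stayed on their side of the threshold, 3 passed it, and 17 changed sign, none of them called. The 17 were in B2m, Cd74, H2-Aa, H2-D1, H2-Eb1, H2-K1 and Lyz2; for H2-Eb1 and Lyz2 in ORX against control, leaving out control 2 gave log2 fold changes of -0.03 and -0.09.

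Over all genes, 5, 358 and 3 were called in the 3 comparisons. With no filter these were 16 in the first and 21 in the last, with all 9 libraries in 1 fit 23, 123 and 11, with DESeq2 28, 224 and 13, and after quantile normalisation 6 in the last, 4 of them higher against 1 of 3 otherwise; in the first, quantile normalisation gave 2 higher of 6 against 1 of 5. The cause was not tested. Leaving out 1 library gave 1 to 51, 223 to 350 and 0 to 66. With the replicate block the counts were 5, 571 and 3. The labels do not say that replicate numbers pair the libraries. Deviations of same-numbered libraries from their group means correlated at -0.165 to 0.151 over the 3 comparisons. Between ORX and ORX+DHT they correlated at 0.061 to 0.151, and those of differently numbered libraries at -0.087 to 0.025. Whether the numbers pair the libraries of these groups was not tested.

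The alternatives for the correlations between members were chosen after seeing the data. Of 180 such values 175 stayed on their side of the threshold, 4 passed it and 1 (H2-Eb1 with Lyz2 without control 1) lost it. Depth limits the class II genes, Mrc1 and Cd68, whose reads per library were few.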

Other observations

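Mast cell markers were scarce: the 5 genes summed to 11.2, 5.53 and 3.97 normalised counts in controls 1, 2 and 3, to 14.7, 16.2 and 11.6 in ORX and to 10.1, 18.4 and 9.88 in ORX+DHT libraries. Kit, the stem cell factor receptor, which other cells also express, stood at 1.25, 3.32 and 1.99 of these counts in controls, at 9.82, 8.53 and 6.62 in ORX and at 2.03, 10.6 and 4.94 in ORX+DHT libraries. The ORX libraries lay above the controls for Kit, while for the more specific markers Cma1, Cpa3 and Mcpt4 the groups overlapped. None of the 5 reached the level for testing. Adipocyte markers summed to 32.5, 6.63 and 9.93 in controls, 37.3, 30.7 and 48.8 in ORX and 14.2, 20.3 and 51.4 in ORX+DHT libraries, most of it from Cfd, the gene of complement factor D, which was not called in any comparison with all libraries and called higher in ORX than in control muscle without control 1. Blood markers, the globin genes and Alas2, summed to 87.9 to 252 over all libraries.

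The ratio of H2-K1 to H2-D1 counts was 0.736, 0.830 and 0.641 in controls 1, 2 and 3, 0.891, 1.02 and 0.754 in ORX and 0.881, 1.06 and 0.781 in ORX+DHT libraries. Replicate 2 had the highest ratio and replicate 3 the lowest in each group. The labels do not say that replicate numbers pair the libraries, and this pattern was noticed after the values were seen and was not tested. The ratio of B2m to the sum of both heavy chains stayed between 0.478 and 0.581 in all 9 libraries.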
